A study of Mus musculus with 4 samples.

Results

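The 10 genes described here encode the core of cytokine signalling through STAT3 and STAT5: the kinases Jak1, Jak2 and Jak3, the transcription factors Stat3, Stat5a and Stat5b, and the feedback inhibitors Socs1, Socs2, Socs3 and Cish. They were chosen by symbol, and all 10 were found among the 24497 features of the expression table. The cells came from spleens of mice given transplanted acute myeloid leukaemia, driven by the fusion gene MLL-AF9. In both groups leukaemic bone marrow cells of primary mice had been passed to irradiated secondary recipients (320 rads). The CS1 mice received CS1, an FTO inhibitor according to the labels (FTO removes methyl groups from RNA), at a dose of 5 mg/kg into the peritoneum on alternate days over 20 days, beginning a week after transplantation, and the PBS mice received PBS on the same schedule. At the end point CD45.2 cells were captured from the spleen on magnetic beads and their poly(A) RNA was sequenced, with 2 libraries for CS1 and 2 for PBS. For CS1 replicate 2 the label for treatment says CS2 where the title and description say CS1, and the library was kept in that group. The labels give neither the purity of the enrichment, nor the CD45 type of the recipients, nor the number of primary leukaemias behind the donor cells, and they do not say that the libraries of a group came from separate animals. The p-values therefore measure the spread between these libraries, which may be technical.

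Cytokine receptors of this class have no kinase of their own. A JAK bound to the receptor's tail phosphorylates the receptor and then a STAT, which pairs up, enters the nucleus and binds DNA at sites of the form TTCNNNGAA. Among the genes that STATs switch on are the SOCS genes and Cish, whose proteins block the kinase or the receptor and, through their SOCS box, recruit a ubiquitin ligase. In myeloid cells GM-CSF and IL-3 act largely through JAK2 and STAT5, and IL-6 and G-CSF through STAT3, with SOCS3 as the main brake on both.

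Transcripts of all 3 kinases, all 3 STATs and Socs3 were lower in CS1 than in PBS. The Jak2 change was small (log2 fold change -0.12), and its call held in only 6 of 12 alternative settings. Socs1, Socs2 and Cish stayed under 4 TPM in both groups and showed no called change. Values are in TPM, a length-normalized share of all transcripts, so levels can be set side by side between genes. A gene was tested where at least 2 libraries reached 1 TPM, and 9 of the 10 members passed this filter, all but Socs2. Of these 9, 7 fell and 0 rose at an adjusted p under 0.05 (limma across all genes, Benjamini-Hochberg adjustment), and 0 were higher at an unadjusted p under 0.05 either. Over all 11866 tested features 31.6% were called lower and 35.3% higher, or 67.0% in either direction, so a call alone was common in this comparison. The median log2 fold change was -0.34 over the 9 members and 0.04 over all tested features. Values in CS1 and PBS did not overlap for any of the 9, against 84.4% of all tested features without overlap.

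**Figure D1:**
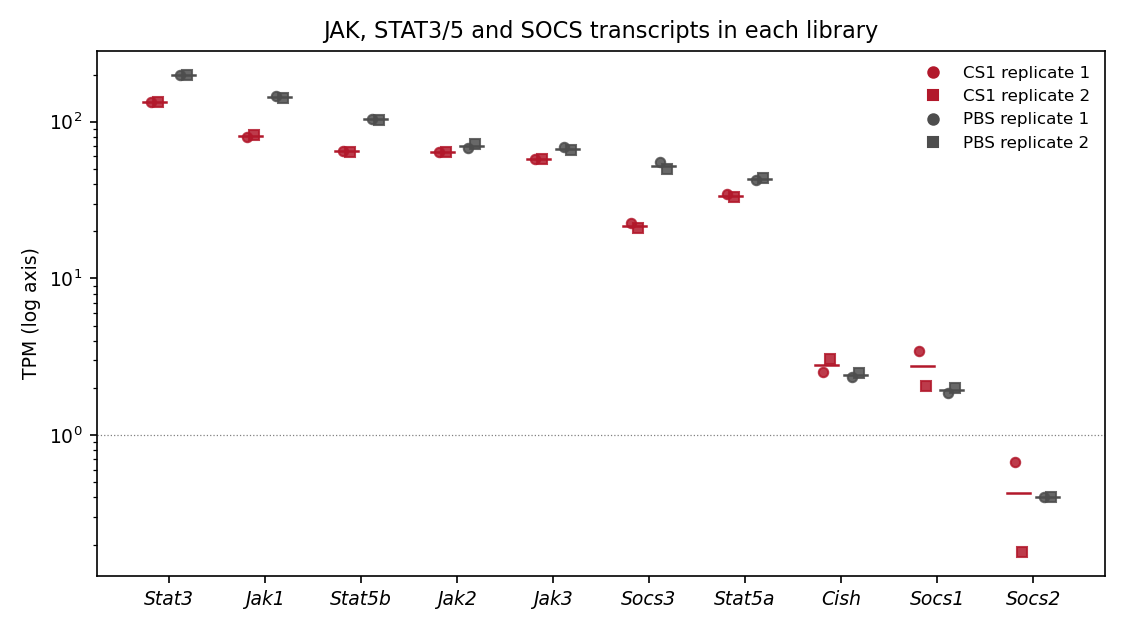
TPM of each member on a log axis in the 2 CS1 libraries (red) and the 2 PBS libraries (grey), with circles for replicate 1, squares for replicate 2 and a bar at each group mean. Members are ordered by their PBS mean, and the dotted line marks the 1 TPM of the filter. The 7 members from Stat3 to Stat5a have lower CS1 values, while Cish, Socs1 and Socs2 lie far below the others.

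The level order was similar in both groups. In CS1, Stat3 had the highest mean (134 TPM), followed by Jak1 (80.5), Stat5b (64.8), Jak2 (64.4), Jak3 (57.8), Stat5a (33.8), Socs3 (21.7), Cish (2.79), Socs1 (2.75) and Socs2 (0.42). In PBS, Stat3 also led (199 TPM), followed by Jak1 (145), Stat5b (103), Jak2 (70.0), Jak3 (67.3), Socs3 (52.3), Stat5a (43.1), Cish (2.42), Socs1 (1.94) and Socs2 (0.40). Socs3 thus stood above Stat5a in PBS and below it in CS1, with no overlap between the genes in either group. Neighbours whose library values overlapped were Stat5b and Jak2 as well as Cish and Socs1 in CS1, and Jak2 and Jak3 in PBS.

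Jak1, which serves the receptors of interferons, of the IL-6 family and of the common gamma chain, fell most among the kinases. The gene lies on chromosome 4 (mm10, 101152367 to 101265282, minus strand). It was measured at 79.35 and 81.73 TPM in CS1 and at 146.74 and 142.67 TPM in PBS. Both CS1 libraries lay at least 60.9 TPM below the lower PBS library, while replicates differed by at most 4.07 TPM. The log2 fold change was -0.84 ± 0.03 (SE, adjusted p = 1.02e-05), below that of all but 4.26% of tested features.

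Jak2, the kinase of the GM-CSF, IL-3, erythropoietin and thrombopoietin receptors, changed least among the called members. It lies on chromosome 19 (29251828 to 29313080, plus strand). Its values were 64.37 and 64.38 TPM in CS1 and 68.23 and 71.71 TPM in PBS. The CS1 values were nearly equal and both below PBS, but the gap of 3.85 TPM was close to the 3.48 TPM between the PBS replicates. The log2 fold change of -0.12 ± 0.04 (SE) was called at adjusted p = 0.0312, and this call was lost at the same fold without CS1 replicate 1 (adjusted p = 0.108) and without CS1 replicate 2 (0.107). It was also lost without PBS replicate 2, at -0.08 (adjusted p = 0.141), and after quantile normalization, at -0.05 (0.259), within a range of 0.00552 to 0.259 over 12 alternatives.

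Jak3, which pairs with JAK1 on receptors with the common gamma chain, lies on chromosome 8 (71676296 to 71690575, plus strand). It was measured at 57.97 and 57.57 TPM in CS1 and at 68.57 and 66.11 TPM in PBS. The groups were well apart, and the change was -0.22 ± 0.03 on the log2 scale (SE, adjusted p = 0.00241). Its exons share 404 bases with exons of Insl3 on the same strand, so reads there cannot be assigned to one gene. Insl3, named here for its position, stood at 3.85 and 4.01 TPM in CS1 and at 1.89 and 1.11 TPM in PBS.

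Jak1 made up a smaller share of the JAK family in both CS1 libraries than in either PBS library. With Tyk2, the remaining family member, which was lower in CS1 by a log2 fold change of -0.36, the 4 kinases summed to 301 ± 2.61 TPM in CS1 and 408 ± 2.26 TPM in PBS (SD, n = 2 each). Jak1 made up 26.6% and 27.0% of this sum in CS1, against 35.8% and 35.1% in PBS. Jak2 took 21.5% and 21.3% in CS1, against 16.7% and 17.6% in PBS. The most abundant kinase was therefore Tyk2 in CS1, with 32.5% and 32.7%, and Jak1 in PBS. Per library, the ratio of Jak1 to Jak2 was 1.23 and 1.27 in CS1 and 2.15 and 1.99 in PBS, a difference of -0.73 on the log2 scale. These ratios did not overlap, but with 2 libraries a group the exact permutation test (two-sided) cannot go below p = 0.333, the value it gave.

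**Figure D2:**
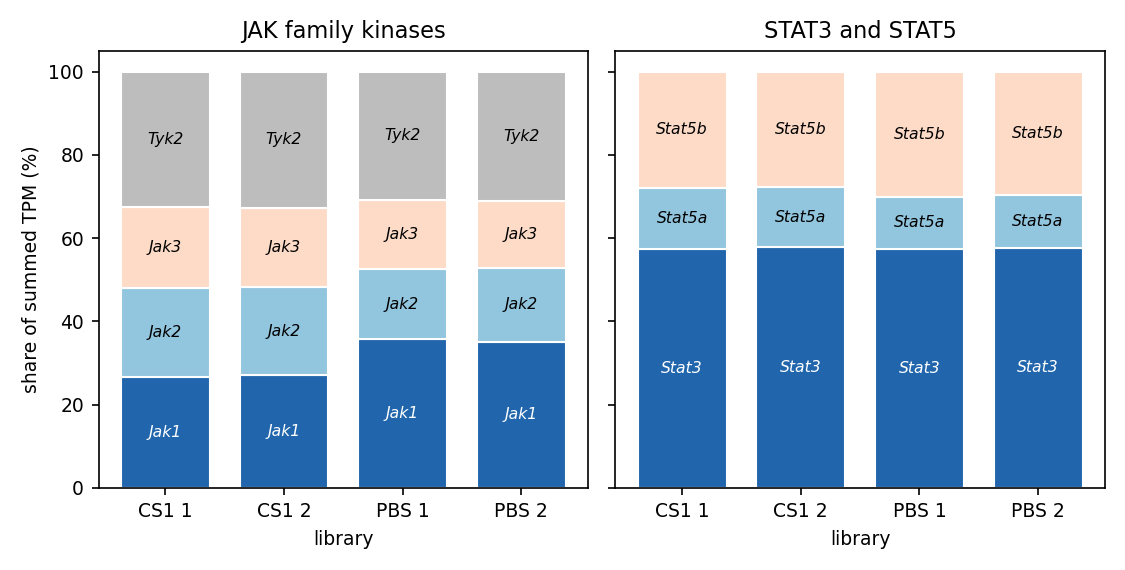
Stacked bars give each gene's share, in percent, of the summed TPM of the JAK family (left) and of Stat3, Stat5a and Stat5b (right), 1 bar per library with CS1 left of PBS. Jak1 takes 26.6% and 27.0% of the JAK sum in CS1 and over 35% in PBS, while the share of Stat3 lies between 57.3% and 57.8% in all 4 libraries.

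The STATs fell together. Stat3, the transcription factor downstream of IL-6 and G-CSF, lies on chromosome 11 (100885098 to 100939540, minus strand). It was measured at 133.64 and 133.85 TPM in CS1 and at 198.42 and 199.82 TPM in PBS. Replicates differed by at most 1.40 TPM and the groups by about 65 TPM. The log2 fold change was -0.57 ± 0.02 (SE, adjusted p = 1.42e-05).

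Stat5b, which with its close relative Stat5a carries signals of GM-CSF, IL-3 and growth hormone, lies on the same chromosome (100780731 to 100850724, minus strand). It had 65.14 and 64.37 TPM in CS1 and 104.18 and 102.79 TPM in PBS. Both CS1 values lay more than 37 TPM below PBS. The log2 fold change was -0.67 ± 0.03 (SE, adjusted p = 1.74e-05).

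Stat5a follows on the opposite strand 8626 bases further on (100859351 to 100885169, plus strand). Its values were 34.33 and 33.2 TPM in CS1 and 42.59 and 43.69 TPM in PBS. The groups were apart by 8.26 TPM, against at most 1.13 TPM between replicates, and the log2 fold change was -0.34 ± 0.04 (SE, adjusted p = 0.000791). The ends of Stat5a and Stat3 overlap by 72 exon bases on opposite strands, and Stat5a and Stat5b are similar in sequence, so these values are uncertain as far as the counting split shared reads.

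The Stat5 pair summed to 98.5 ± 1.34 TPM in CS1 and 147 ± 0.205 TPM in PBS (SD, n = 2 each), or 0.672 of the PBS level. Stat3 alone stood at the same ratio of 0.672, and its share of the 3 STATs stayed between 57.3% and 57.8% in all 4 libraries. Within the pair, Stat5a weighed more in both CS1 libraries. The ratio of Stat5a to Stat5b was 0.527 and 0.516 in CS1 and 0.409 and 0.425 in PBS, without overlap (log2 difference 0.32, exact permutation p = 0.333, two-sided, the smallest possible).

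Of the member promoters searched, those of Socs3 and Cish are shown, the ones that held a match to TTCNNNGAA. Both genes are textbook targets of STAT3 and STAT5. The window runs from 250 bases before to 50 bases from the start annotated by RefSeq (GRCm38.p6), and 9 of the 10 members had such a window. Capitals mark each match to TTCNNNGAA, a palindromic pattern searched on both strands, with N for any base. The Socs3 window is chr11:117969317-117969616 on the minus strand and the Cish window chr9:107296409-107296708 on the plus strand, both written 5′ to 3′.
Socs3: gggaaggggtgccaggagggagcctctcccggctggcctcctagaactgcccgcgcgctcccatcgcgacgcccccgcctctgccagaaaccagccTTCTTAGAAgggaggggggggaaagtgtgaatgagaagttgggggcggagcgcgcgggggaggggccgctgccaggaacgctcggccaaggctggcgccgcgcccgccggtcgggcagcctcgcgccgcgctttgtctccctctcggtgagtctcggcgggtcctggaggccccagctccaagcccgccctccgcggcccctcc
Cish: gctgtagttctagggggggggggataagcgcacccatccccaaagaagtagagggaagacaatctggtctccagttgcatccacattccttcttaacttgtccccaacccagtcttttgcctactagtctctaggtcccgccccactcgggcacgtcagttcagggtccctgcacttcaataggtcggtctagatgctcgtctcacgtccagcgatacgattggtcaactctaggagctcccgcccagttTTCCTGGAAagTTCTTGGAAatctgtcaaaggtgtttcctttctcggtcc
In Socs3 the match TTCTTAGAA begins 154 bases before the start. In Cish there are 2 matches, TTCCTGGAA at the start base itself and TTCTTGGAA 11 bases after it. Both genes begin further upstream in the GENCODE annotation, which gave the gene coordinates printed below. The Socs3 match (117969512 to 117969520) and both Cish matches (from 107296659 and 107296670) lie within those gene spans. The 9 genes have 11 windows, as Stat5a and Stat5b have 2 each, and the windows of Socs3 and Cish were the ones with a match. Among all 32851 promoter windows of 300 bases, 8.30% held at least 1 match and 0.457% held 2 or more. A match describes the letters and does not show that a STAT bound there.

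Socs3, the inhibitor of signalling through gp130 and the G-CSF receptor, had the largest change of the 10 genes. It lies on chromosome 11 (117966079 to 117970047, minus strand). It was measured at 22.5 and 20.89 TPM in CS1 and at 55.06 and 49.57 TPM in PBS. The lower PBS value was still more than 27 TPM above both CS1 values, and CS1 kept 0.415 of the PBS mean. The log2 fold change was -1.23 ± 0.07 (SE, adjusted p = 3.64e-05), and only 1.42% of tested features lay at or below it.

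Socs1, which blocks JAK kinases downstream of interferons, lies on chromosome 16 (10782240 to 10785536, minus strand). It had 3.44 and 2.05 TPM in CS1 and 1.87 and 2.01 TPM in PBS. CS1 replicate 1 stood apart, while replicate 2 was only 0.04 TPM above the higher PBS value. The difference missed the threshold (log2 fold change 0.32, 95% confidence interval -0.17 to 0.82, adjusted p = 0.195). The value depended on which CS1 library was kept: the log2 fold change was 0.05 without CS1 replicate 1 (adjusted p = 0.757) and 0.60 without CS1 replicate 2 (adjusted p = 0.0263), within a range of 0.0263 to 0.805 over the alternatives. In both of these fits CS1 has a single library, which is assumed to vary like PBS.

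Cish, a STAT5-induced inhibitor that acts at receptor tails and the member with 2 motif matches, lies on chromosome 9 (107296026 to 107302784, plus strand). It stood at 2.51 and 3.06 TPM in CS1 and at 2.35 and 2.49 TPM in PBS. The lower CS1 value exceeded the higher PBS value by 0.02 TPM, less than either pair of replicates differed. No call was made (log2 fold change 0.14, 95% confidence interval -0.18 to 0.46, adjusted p = 0.364). The log2 fold change was 0.25 without CS1 replicate 1 and 0.04 without CS1 replicate 2, and the direction turned after quantile normalization (-0.11). Its exons overlap predicted antisense genes, so reads there cannot be told apart if the counting ignored strand.

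Socs2, a feedback inhibitor of growth hormone and other STAT5 signals, lies on chromosome 10 (95385362 to 95417180, minus strand). Its values were 0.67 and 0.18 TPM in CS1 and 0.4 TPM in both PBS libraries. The CS1 libraries lay on either side of PBS, and no library reached 1 TPM. The ratio of Cish to Socs2 was 3.75 and 17.0 in CS1, on either side of 5.87 and 6.23 in PBS. Since Socs3 dominated the inhibitors, the 4 inhibitors together summed to 27.7 ± 2.08 TPM in CS1 and 57.1 ± 3.68 TPM in PBS (SD, n = 2 each). The ratio of Socs3 to Socs1 was 6.54 and 10.2 in CS1 and 29.4 and 24.7 in PBS (log2 difference -1.72, exact permutation p = 0.333, two-sided, the smallest possible).

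**Figure D3:**
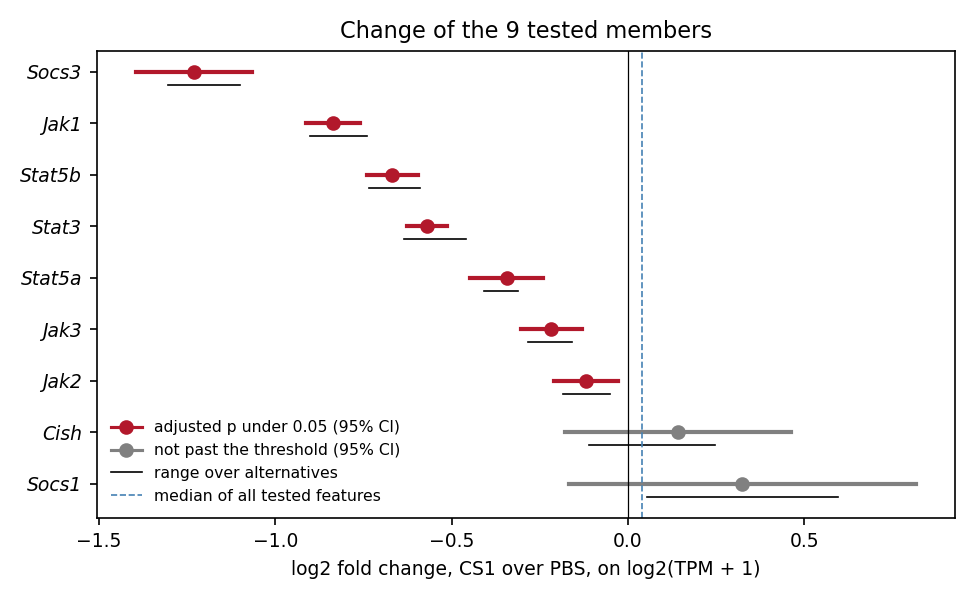
Log2 fold change of CS1 over PBS for the 9 tested members on the log2(TPM + 1) scale, with 95% confidence intervals (thick lines) and the range over the alternative settings (thin lines below). The dashed line is the median of all tested features, 0.04. Values run from -1.23 for Socs3 to 0.32 for Socs1, and the intervals of Cish and Socs1 cross 0.

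Upstream of the members, receptors that signal through JAKs were lower in most cases. Of 36 receptor genes listed, 26 were tested, and 18 of these fell while 4 rose (median log2 fold change -0.29). Il21r, the IL-21 receptor, fell most, with 4.69 and 5.36 TPM in CS1 and 18.44 and 17.35 TPM in PBS (log2 fold change -1.65 ± 0.09, SE, adjusted p = 3.65e-05). Csf2rb2, a mouse beta chain for IL-3 that resembles Csf2rb and may share reads with it, fell to 47.7 ± 1.39 TPM in CS1, against 104 ± 1.27 TPM in PBS (SD, n = 2 each). Il13ra1, a subunit of the receptor for IL-4 and IL-13, fell by 0.98 on the log2 scale. Outside the naming rule, Il3ra, the alpha chain for IL-3, rose (log2 fold change 0.32), while the shared beta chain Csf2rb and the G-CSF receptor gene Csf3r fell by 0.86 and 0.87.

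The ligands were mostly not measurable: of 28 listed genes 6 were tested, with 3 higher, 1 lower and 2 not past the test. This list is small, and 35.3% of all tested features were called higher and 31.6% lower. Clcf1, a cytokine of the IL-6 family, stood at 8.39 and 8.94 TPM in CS1 and at 1.92 and 3.46 TPM in PBS, a rise of 1.42 on the log2 scale. Il12a rose by 0.84 and Il27 fell by 0.81. Without the filter on low values the calls of Clcf1 (adjusted p = 0.0788, range 0.000747 to 0.0788 over the alternatives) and Il12a (0.0661, range 0.000764 to 0.0661) were lost. Outside the rule, Osm was the remaining ligand gene called higher, at 29.63 and 31.22 TPM in CS1 and 18.3 and 19.8 TPM in PBS (log2 fold change 0.65). It also stands in the list of STAT5-linked genes. Il6, Csf2, Csf3 and Il3, likewise outside the rule, stayed under 0.2 TPM in every library.

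Among 4 JAKs and STATs that are not members, 2 fell, Tyk2 and Stat6, and 1 rose. So few genes say little beside the 31.6% lower and 35.3% higher over all tested features. Stat6, which serves IL-4 and IL-13, fell by 0.84. Stat4, the STAT of IL-12 signalling, was the gene that rose (0.42, adjusted p = 0.0105), a call lost without CS1 replicate 2 (adjusted p = 0.0634) or PBS replicate 1 (0.0540), within a range of 0.00862 to 0.0882 over the alternatives.

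Other negative regulators numbered 15, of which 7 fell, 1 rose and 7 were not called (median -0.16). Ptpn1, a phosphatase that acts on JAK2 and TYK2, fell by 1.12 and Ptprc, which encodes CD45, by 0.89 on the log2 scale. The ubiquitin ligase gene Cbl fell to 67.57 and 66.59 TPM in CS1, against 145.5 and 143.73 TPM in PBS. CD45 is also the surface protein by which these cells were enriched. Outside the rule, Ptpn6, which encodes SHP-1, stood at 648.14 and 677.66 TPM in CS1 and at 676.34 and 673.08 TPM in PBS, which overlapped. The partners that join a SOCS box to its ubiquitin ligase formed a list in which 3 of 6 tested genes rose and 0 fell (limma, also 0 at an unadjusted p under 0.05). Over all tested features 35.3% were called higher and 31.6% lower. The log2 fold changes were 0.42 for Rnf7, 0.19 for Rbx1 and 0.11 for Tceb2. The call of Rbx1 was lost without the filter (adjusted p = 0.0580, range 0.00152 to 0.0580). The call of Tceb2 was lost without CS1 replicate 2 (adjusted p = 0.124) and without either PBS replicate (0.0775 and 0.149), as well as after scaling by a trimmed mean of log ratios (0.378, range 0.00294 to 0.378).

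Genes linked to STAT3 and STAT5 as targets included both rises and falls. STAT5-linked genes divided evenly, with 3 of 10 higher and 3 lower (median -0.08). The transcriptional repressor gene Bcl6 fell to 46.3 ± 0.403 TPM in CS1, against 112 ± 0.276 TPM in PBS, while Id1 and the cyclin gene Ccnd2 each rose by 0.68 on the log2 scale. The call of Id1 was lost without the filter (adjusted p = 0.0527, range 0.000448 to 0.0527 over the alternatives). Outside the rule, the kinase gene Pim1, a widely used STAT5 target, had 147.51 and 145.73 TPM in CS1 and 152.74 and 146.65 TPM in PBS, without a call (log2 fold change -0.03). Of 15 STAT3-linked genes 8 rose and 7 fell (median 0.17). At the extremes were the acute-phase gene Saa3, at 10.2 and 13.57 TPM in CS1 against 142.95 and 139.27 TPM in PBS, and Vegfa, at 17.9 and 16.99 TPM in CS1 against 5.16 and 5.43 TPM in PBS. Pim3 rose by 1.07. All these lists are read against 31.6% lower and 35.3% higher over all tested features.

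**Figure D4:**
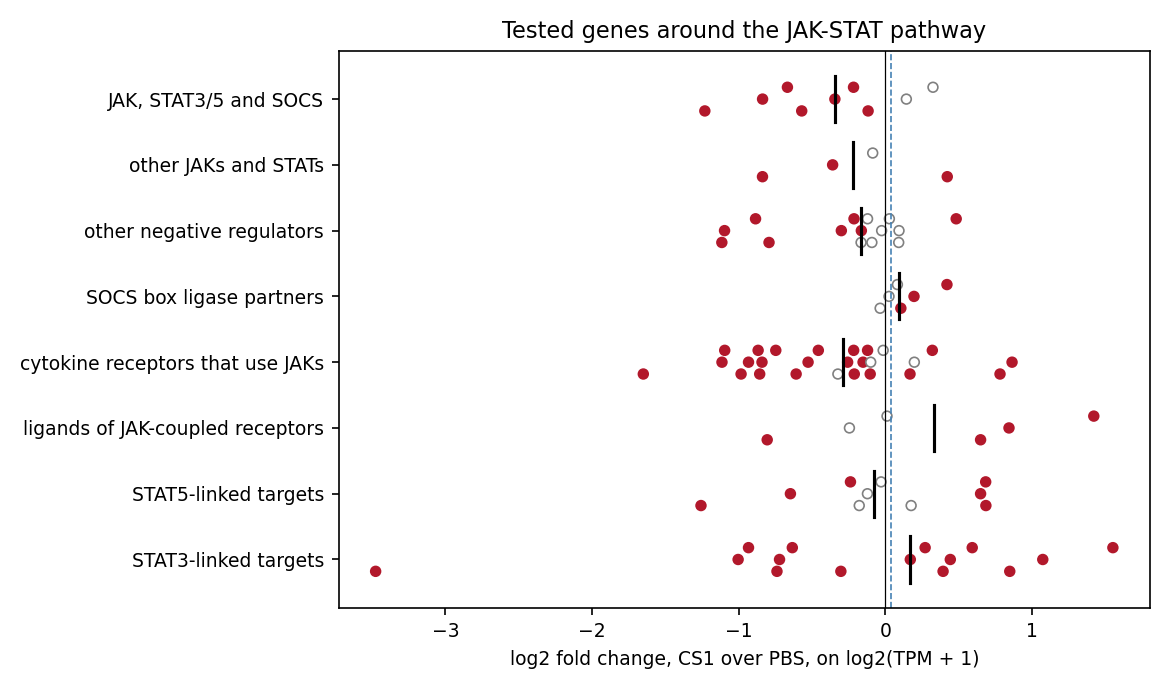
Each point is a tested gene, placed by its log2 fold change (CS1 over PBS, log2(TPM + 1) scale), in rows by list. Filled red points passed an adjusted p of 0.05, open points did not, short black lines are list medians and the dashed line is the median of all tested features. Receptors lie mostly to the left of 0, while STAT3-linked genes spread to both sides, with Saa3 at -3.48.

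For each member the gene with the closest pattern among 89 tested members and listed genes was taken by the smallest Euclidean distance of centred log2 values over the 4 libraries, which mainly reflects an equal difference between the groups. Jak1 lay nearest to the IL-6 receptor gene Il6ra (distance 0.05, log2 fold changes -0.84 for both). Jak2 lay nearest to Ifnar1, Jak3 to Il6st, Stat3 to Ifngr2, Stat5a to Socs4 and Stat5b to Ccnd3. Socs3 was closest to Bcl6, at a distance of 0.13 and with log2 fold changes of -1.23 and -1.26. The nearest genes of Cish and Socs1, Tceb2 and Rnf7, were at 0.12 and 0.37.

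The tissue label was checked with marker lists. All 10 genes listed for myeloid leukaemia cells were tested, and 4 of them were higher and 5 lower. Whether their RNA came from leukaemic or normal myeloid cells was not tested. The 10 genes had summed levels of 12810 and 12906 TPM in CS1 and 18048 and 18199 TPM in PBS. Lyz2 was the largest part of these sums, with 6192.95 and 6221.92 TPM in CS1 and 13127.71 and 13255.67 TPM in PBS. The lower sums in CS1 rest on this gene and do not describe the list as a whole. Elane and Mpo, of neutrophil granules, rose, and so did Hoxa9 and Meis1 (log2 fold changes 1.22 and 0.47). The myeloid genes Lyz2, Itgam and Csf1r fell, Ptprc and Ly6c2 were also called lower, and Cd14 was not called. The 7 T cell genes summed to 13.1 and 14.7 TPM in CS1 and 14.4 and 14.3 TPM in PBS, but they did not move as one. Cd5, also found on some B cells, rose, with 6.11 and 7.84 TPM in CS1 and 2.62 and 3.35 TPM in PBS, while the other 6 had lower means in CS1, with Cd3e and Lck called lower. For the 5 of 6 listed B cell genes found in the table the sums were 34.5 and 31.7 TPM in CS1 and 55.3 and 53.7 TPM in PBS, with 4 called lower, and for 5 NK cell genes 0.91 and 1.42 TPM in CS1 and 3.41 and 3.11 TPM in PBS. Erythroid genes, 7 in number, reached 42.6 and 35.9 TPM in CS1 and 19.0 and 19.5 TPM in PBS, and 1 of 3 tested was called, Hbb-bs, at 13.49 and 12.18 TPM in CS1 and at the lowest listed value in PBS. The alpha globin genes Hba-a1 and Hba-a2, near-identical copies between which counting can split reads, stood at 26.08 and 0.01 TPM and at 0.01 and 19.33 TPM in CS1, so their single values are uncertain. For 5 megakaryocyte genes the sums were 6.57 and 4.12 TPM in CS1 and 2.17 and 1.44 TPM in PBS, with Gp1bb called higher and Pf4 and Ppbp at the lowest listed value throughout. These sums were small beside the myeloid list. The splenic macrophage list summed to 99.6 and 101 TPM in CS1 and 166 and 167 TPM in PBS, nearly all of it Adgre1, with 5 of 7 genes under 1 TPM everywhere. Adgre1 was called lower, while Vcam1, the other tested gene, was called higher, at 1.37 and 1.51 TPM in CS1 and 0.47 and 0.85 TPM in PBS. The stroma list summed to 37.9 and 36.1 TPM in CS1 and 45.6 and 43.7 TPM in PBS, nearly all Pecam1, with Pdgfra at the lowest listed value. Dendritic cell genes summed to 391 and 387 TPM in CS1 and 192 and 194 TPM in PBS, mostly Flt3, which progenitors also express, and all 4 tested genes of the list were higher. The other 3 were low, with means of 2.79 TPM in CS1 and 0.80 TPM in PBS for Siglech, 3.62 TPM in CS1 and 1.92 TPM in PBS for Zbtb46, and 4.86 TPM in CS1 and 1.59 TPM in PBS for Clec9a. The part of these differences in the members' changes was not tested, and in bulk RNA fewer cells of a type cannot be told apart from less RNA per cell. Fto, the gene whose protein CS1 is said to inhibit, stood at 31.95 and 30.91 TPM in CS1 and at 29.5 and 30.87 TPM in PBS and did not pass the test (adjusted p = 0.334).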

How the data were processed

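Poly(A) RNA of CD45.2-enriched spleen cells was sequenced in 4 libraries. According to the submitters' processing notes, STAR, RSEM and mm10 were used; their versions and roles, the annotation and the strand setting were not given in the sources used here. All deposited values were taken as TPM from the authors' processing, a unit inferred from decimals, from column sums and from the mention of RSEM. TPM holds no read depth, so depth is unknown and counting error could not be estimated. As a share of all transcripts, each TPM value also depends on the abundant ones.

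A feature was tested if 2 or more libraries reached 1 TPM (11866 of 24497). CS1 and PBS were compared on log2(TPM + 1) in limma 3.58.1 (R 4.3.3) with a variance trend, two-sided. P-values were adjusted by Benjamini-Hochberg across the tested features, with calls made under 0.05, and adjusted p-values come from this limma fit or, where an alternative is named, from limma under that alternative. With 1 library left out, the lone library of its group is assumed to vary like the other group. The scale understates changes of low genes. Ratios between members used exact permutation tests over libraries. Alternatives were pseudocounts of 0.1 and 5, no filter and one at 5 TPM, quantile normalization, scaling by an unweighted trimmed mean of log ratios, no variance trend, each library left out and a replicate block.

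The members and the lists were chosen with earlier results of these data known. Some listed genes are not reported here, and the counts, medians and nearest genes leave them out. Named genes are the members, Fto, for each list up to 3 called genes with the largest change, no overlap between groups and a group mean of at least 5 TPM, and the nearest gene to each member; others are marked as outside this rule or belong to the marker lists. Gene coordinates come from GENCODE M21 (GRCm38, which is mm10) and promoters from RefSeq on GRCm38.p6.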

Additional observations from a re-analysis of the deposited data

How the results depend on the processing

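Jak1, Jak3, Stat3, Stat5a, Stat5b and Socs3 stayed lower and past the threshold in each of the 12 alternatives, Socs3 between -1.31 and -1.10 and Jak1 between -0.90 and -0.74. Members called lower numbered 6 or 7 throughout. Leaving out 1 library gave 0 to 1 members and 0 to 1 other JAKs and STATs called higher. Without a filter, called higher were 0 other JAKs and STATs, 0 other negative regulators, 1 SOCS box partner and 1 ligand, and the Jak2 call was lost (adjusted p = 0.131); it was also lost without the variance trend (0.0809). Clcf1, Il12a, Id1, Rbx1, Stat4 and Tceb2 also lost their calls without a filter. Quantile normalization gave 0 other JAKs and STATs and 2 other negative regulators higher, 2 ligands lower, and -0.11 for Cish. Scaling by a trimmed mean of log ratios gave 11 other negative regulators and 5 STAT5-linked genes lower, and -0.0075 for Fto. The cause was not tested. The replicate block gave 4110 higher and 3640 lower features, against 4194 and 3755, and 7 members lower. Same-numbered libraries share only a number, and their deviations correlated at 0.02. Leaving out 1 library moved the log2 difference in the ratio of Cish to Socs2 between -0.69, without CS1 replicate 2, and 1.49, without CS1 replicate 1, while the other 3 ratios kept their sign. Depth is unknown, so low values such as those of Socs2 could not be given a counting error.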
